A study of Mus musculus with 4 samples.

Results

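The genes described here are 10 regulators and markers of epithelial-mesenchymal transition, chosen by symbol out of the 28693 genes counted in mouse mammary gland cells. They comprise the transcription factors Snai1, Snai2, Twist1, Zeb1 and Zeb2, the mesenchymal markers Vim (vimentin, an intermediate filament protein) and Cdh2 (N-cadherin), and the epithelial genes Cdh1 (E-cadherin), Esrp1 (a splicing regulator) and Grhl2 (a grainyhead-like transcription factor). Each symbol matched 1 row. The rule used names and no measured value, but the list was drawn up with earlier results of these data known.

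In epithelial-mesenchymal transition, cells held in a sheet by E-cadherin loosen their junctions and take on a fibroblast-like cytoskeleton. The SNAIL, TWIST and ZEB factors bind E-box sequences and repress epithelial genes such as Cdh1, whereas GRHL2 and ESRP1 maintain epithelial transcription and epithelial splicing. In the mammary gland the pattern is also a matter of cell layer: basal (myoepithelial) cells normally make vimentin and SLUG, the product of Snai2, while luminal cells make little of either. LATS1 and LATS2 are the kinases of the Hippo pathway that restrain the co-activators YAP and TAZ.

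Single-cell RNA-seq libraries were made from the live-sorted mammary cells of 4 mice, 1 mouse per library. Both control mice (CTL, labelled WT, n = 2) carried loxP-flanked alleles of Lats1 and Lats2 and a heterozygous R26-lsl-EYFP reporter but no Cre, so they were not genetically wild type. Both LATS1/2-KO mice (n = 2) carried the same floxed alleles together with Krt8-CreERT2, whose Krt8 promoter drives a tamoxifen-dependent Cre in luminal cells. The reporter was heterozygous in LATS1/2-KO replicate 1 and homozygous in replicate 2. All mice were adult and nulliparous and were given 2 mg of tamoxifen on each of 5 consecutive days, with glands collected 7 days after the last dose. EYFP therefore marks cells in which Cre had acted, but a cell without an EYFP UMI may still have recombined, and free EYFP RNA can give a UMI to a cell that had not. An EYFP UMI was found in 25.5% and 30.7% of LATS1/2-KO luminal ER- cells and in 1.72% and 2.54% of the macrophages of the same libraries.

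After cells with over 500 genes and under 20% mitochondrial UMIs were retained, 18200 of 20324 barcodes remained, and the median depth per library lay between 5962.5 and 10141 UMIs per cell (UMIs are molecule counts; 1 pair of libraries shared at most 12 barcodes). Each cell was assigned to a lineage by its own marker genes, which gave 9925 luminal ER- cells (luminal cells without hormone receptor markers), 3076 luminal ER+ cells, 1049 basal cells, 1270 fibroblasts, 517 endothelial cells, 308 lymphocytes, 602 macrophages and 137 perivascular cells, while 1316 were left unassigned. In luminal ER- cells, EYFP reached 104.9 and 149 CPM (counts scaled to 1000000 UMIs of that lineage in that library) with LATS1/2-KO, against 0.316 and 0.384 without Cre. Lats1 stood at 25.7 and 25.2 CPM (CTL) against 13.9 and 16.4 (LATS1/2-KO), and Lats2 at 15.1 and 16.7 against 29.0 and 30.3. These reads come from the 3' ends of transcripts, so neither the Lats1 level nor the Lats2 level checks the deletion. The lineages rest on their marker genes, so the presence of those markers in them is no finding. Their summed levels nevertheless shifted in LATS1/2-KO: in luminal ER- cells the luminal ER- markers were at 13410 and 16410 CPM in CTL against 6179 and 7489, the basal markers at 32.8 and 24.9 against 2108 and 1542, and in luminal ER+ cells the luminal ER+ markers at 4949 and 4276 against 1750 and 1789. A LATS1/2-KO cell that had lost the luminal ER+ markers would be counted as luminal ER-, and the part of these shifts in the results was not tested. A cell that had lost the general epithelial markers, or gained fibroblast markers or several basal markers, would be left out of the luminal classes. Unassigned cells made up 4.90% and 4.84% of the CTL libraries and 7.42% and 10.8% of the LATS1/2-KO libraries.

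On GRCm38 (GENCODE annotation), Vim lies at chr2:13573927-13582826 on the plus strand, Snai1 at chr2:167538195-167542814 on the plus strand and Zeb2 at chr2:44983632-45117395 on the minus strand. Cdh1 lies at chr8:106603351-106670246 (plus), Esrp1 at chr4:11331933-11386783 (minus), Grhl2 at chr15:37233036-37363569 (plus), Twist1 at chr12:33957671-33959829 (plus) and Snai2 at chr16:14705852-14709385 (plus). All 10 are annotated as protein-coding. The UMIs of a gene were counted over its whole annotation, so no exon or isoform is resolved.

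The promoters of Vim and Snai1 are shown because these 2 members rose together in LATS1/2-KO luminal ER- cells with little that free RNA could account for. Each window runs from 250 bases before to 50 bases after the RefSeq start (GRCm38.p6, plus strand), and 4 of the 10 members had an entry in the promoter table. Capitals mark matches to CAGGTG, the E-box read by SNAIL and ZEB factors, GGAATG, the core bound by TEAD factors that partner YAP and TAZ, and GGGCGG, the GC box, each searched on both strands.
Vim, chr2:13574061-13574360: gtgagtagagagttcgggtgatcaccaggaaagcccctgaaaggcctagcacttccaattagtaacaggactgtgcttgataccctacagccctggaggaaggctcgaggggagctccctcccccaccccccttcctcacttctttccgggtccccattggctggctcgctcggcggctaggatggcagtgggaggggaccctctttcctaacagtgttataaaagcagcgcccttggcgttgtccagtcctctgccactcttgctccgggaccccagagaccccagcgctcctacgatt
Snai1, chr2:167537945-167538244: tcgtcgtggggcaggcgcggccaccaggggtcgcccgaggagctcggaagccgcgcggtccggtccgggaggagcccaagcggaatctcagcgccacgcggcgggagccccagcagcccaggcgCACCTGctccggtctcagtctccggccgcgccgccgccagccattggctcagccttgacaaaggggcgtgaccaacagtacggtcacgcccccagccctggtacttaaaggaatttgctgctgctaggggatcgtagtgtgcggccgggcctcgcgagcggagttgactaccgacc

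The Snai1 window held 1 match, an E-box that reads CAGGTG on the minus strand and starts at position -126 from the transcription start. These letters were not found in the Vim window, nor were GGAATG and GGGCGG found in either. Of all 32851 promoter windows in the table, 20.2% held CAGGTG, 14.7% held GGAATG and 35.7% held GGGCGG. A match is a description of the sequence and not evidence of binding.

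**Figure D1:**
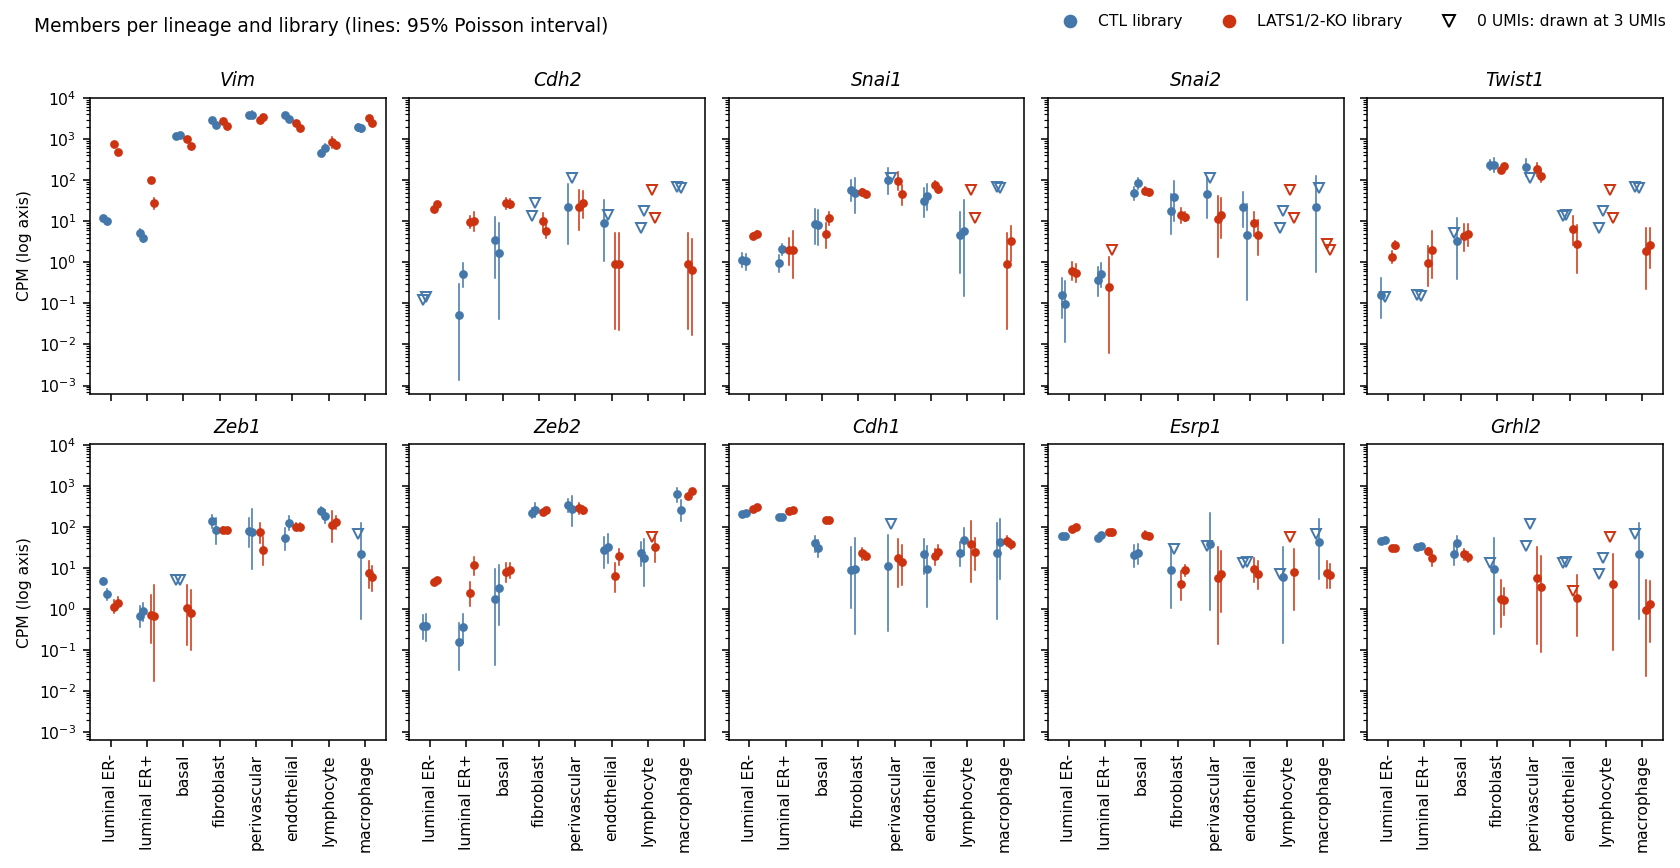
CPM (log axis) of each of the 10 genes in 8 lineages, with 1 point per library and its 95% Poisson interval; open triangles mark libraries with 0 UMIs and are drawn at the level of 3 UMIs. Vim and Cdh2 of LATS1/2-KO luminal ER- cells stand far above the CTL points, whereas the 5 transcription factors stay below their fibroblast levels in every luminal library.

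The levels of the members in lineages other than luminal cells set the scale. Fibroblasts of the mammary stroma were the reference for mesenchymal expression, and there Vim was at 2917, 2191, 2828 and 2037 CPM in CTL replicates 1 and 2 and LATS1/2-KO replicates 1 and 2, in that order, which is kept throughout. Twist1 was at 241, 238, 174 and 225 CPM in fibroblasts, and Zeb2 at 223, 257, 236 and 259. Zeb1 was at 138, 85.7, 86.3 and 84.5, and Snai1 at 58.0, 47.6, 50.6 and 46.9. Only 55 and 23 fibroblasts were present in the CTL libraries against 298 and 894 in the LATS1/2-KO libraries, so the CTL values rest on few UMIs.

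The members differed in which lineage held the highest level. Vim was at 1828 to 3983 CPM in fibroblasts, endothelial cells, perivascular cells and macrophages, Zeb2 was highest in macrophages (615, 264, 575 and 731 CPM, with perivascular cells at 268 in CTL replicate 2), a cell type for which ZEB2 is a known identity factor, and Zeb1 was highest in lymphocytes of CTL (245 and 182 CPM). Snai2 was instead a basal gene here, with 48.2, 84.3, 55.9 and 50.4 CPM in basal cells and 17.8, 38.1, 14.3 and 13.0 in fibroblasts. Its order in the CTL libraries rests on 4 UMIs in the fibroblasts of each. Cdh1, Esrp1 and Grhl2 were highest in luminal cells, and the fibroblast level of Cdh1 was 4.43% of the luminal ER- level in each CTL library, 8.12% in LATS1/2-KO replicate 1 and 6.51% in LATS1/2-KO replicate 2. RNA released from luminal cells could give 48.5% to 130% of those fibroblast Cdh1 UMIs, so a fibroblast level of this size is not evidence of expression.

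The first question was whether loss of LATS1/2 moved these genes in luminal ER- cells, the lineage with the largest number of cells. Vim and Cdh2 rose steeply, Snai1 rose from a very low level, and Grhl2 fell, while Cdh1 did not pass the test and Esrp1 rose slightly. Of the 10 members, all of which passed the filter on low counts, 7 rose and 2 fell with an adjusted p below 0.05 (edgeR's quasi-likelihood test on summed counts, Benjamini-Hochberg adjustment over 13773 genes). In this comparison 65.2% of all tested genes were called, 34.2% higher and 30.9% lower, so 9 called members of 10 is not by itself a result about these genes; the sizes of the changes and their levels carry the information. The median log2 fold change was 1.76 over the members and 0.02 over all genes tested. On unscaled library totals the median of all genes would be 0.38 (0.11 in basal cells), with 49.5% of all genes called higher and 18.9% lower, and fold changes below are those after TMM scaling, while levels are CPM.

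Vim was at 11.8 and 9.93 CPM in CTL luminal ER- cells and at 755 and 484 in LATS1/2-KO luminal ER- cells. Both LATS1/2-KO libraries lay far above both CTL libraries, and they differed from each other by much less. The log2 fold change was 5.47 ± 0.25 (SE, n = 2 against 2), with an adjusted p of 6.45e-06 by edgeR. Relative to fibroblasts of the same library, the luminal ER- level was 0.403% and 0.453% in CTL and 26.7% and 23.8% in LATS1/2-KO. Relative to basal cells, which make vimentin normally, it was 1.00% and 0.772% in CTL and 73.4% and 70.9% in LATS1/2-KO.

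Cdh2 gave 0 UMIs in the luminal ER- cells of both CTL libraries, which held 2807 and 2032 cells, and 543 and 804 UMIs in those of LATS1/2-KO, or 20.03 and 26.6 CPM. With a floor of 3 UMIs over both CTL libraries, the LATS1/2-KO mean was at least 359-fold higher (adjusted p = 1.18e-05, edgeR). Cdh2 was therefore detected where it had not been.

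Snai1, which encodes the repressor SNAIL, was at 1.14 and 1.06 CPM in CTL and at 4.39 and 4.93 in LATS1/2-KO. The groups did not overlap, and the log2 fold change was 1.71 ± 0.23 (SE, adjusted p = 0.000576, edgeR). Even after this rise the luminal ER- level in LATS1/2-KO remained at 8.68% and 10.5% of the fibroblast level. Snai2 gave 4 and 2 UMIs in CTL and 17 in each of the LATS1/2-KO libraries, with a log2 fold change of 1.80 ± 0.51 (SE, adjusted p = 0.0172, edgeR), but its call was lost in 5 of 15 alternatives (DESeq2, the stricter gate, and without CTL replicate 1, CTL replicate 2 or LATS1/2-KO replicate 1), at an adjusted p between 0.0524 and 0.153. At 0.627 and 0.563 CPM, its LATS1/2-KO luminal level was 1.12% of the basal level in each library, and RNA released from basal cells could give all of it (the estimate is given further on).

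Twist1 gave 4, 0, 37 and 82 UMIs in luminal ER- cells, and Zeb2 gave 10, 8, 124 and 150. Both passed the test as higher in LATS1/2-KO, Twist1 with a fitted log2 fold change of 4.15 ± 0.77 (SE, adjusted p = 0.00262, edgeR), which ranged from 3.28 to 8.65 over 15 alternatives and is no measure of size, with 4 UMIs in all of CTL, and Zeb2 with 3.24 ± 0.27 (SE, adjusted p = 6.95e-05). Zeb1 went the other way, from 4.89 and 2.30 CPM down to 1.14 and 1.42, a log2 fold change of -1.86 ± 0.39 (SE, adjusted p = 0.00452). These 3 genes are read together with the free RNA estimates given further on, since their levels in luminal ER- cells are at most 3.54% of the fibroblast level.

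Among the epithelial genes, Cdh1 was at 201 and 215 CPM in CTL and 279 and 309 in LATS1/2-KO luminal ER- cells. Its libraries did not overlap on this scale, but after TMM scaling the log2 fold change was 0.13 ± 0.09 (SE) with an adjusted p of 0.242, and on unscaled totals it was 0.50 with an adjusted p of 0.00285 (edgeR). A fall of Cdh1 was not seen on either scale among cells kept by the luminal gate. That gate requires general epithelial markers, so cells that had lost them are not covered. Esrp1 was at 88.8 and 97.0 CPM with LATS1/2-KO against 58.7 and 58.6 without, a log2 fold change of 0.30 ± 0.09 (SE, adjusted p = 0.0180), and its call was lost without either CTL library or without LATS1/2-KO replicate 2 (adjusted p between 0.0574 and 0.109). Grhl2 was at 46.4 and 46.8 CPM in CTL and at 29.8 and 30.5 in LATS1/2-KO, so that every LATS1/2-KO library was below every CTL library. Its log2 fold change was -0.99 ± 0.09 (SE, adjusted p = 7.85e-05), and it kept its direction and call in all 16 alternatives, at log2 fold changes between -1.06 and -0.63. Of the 3 epithelial members, Grhl2 alone was called lower.

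**Figure D2:**
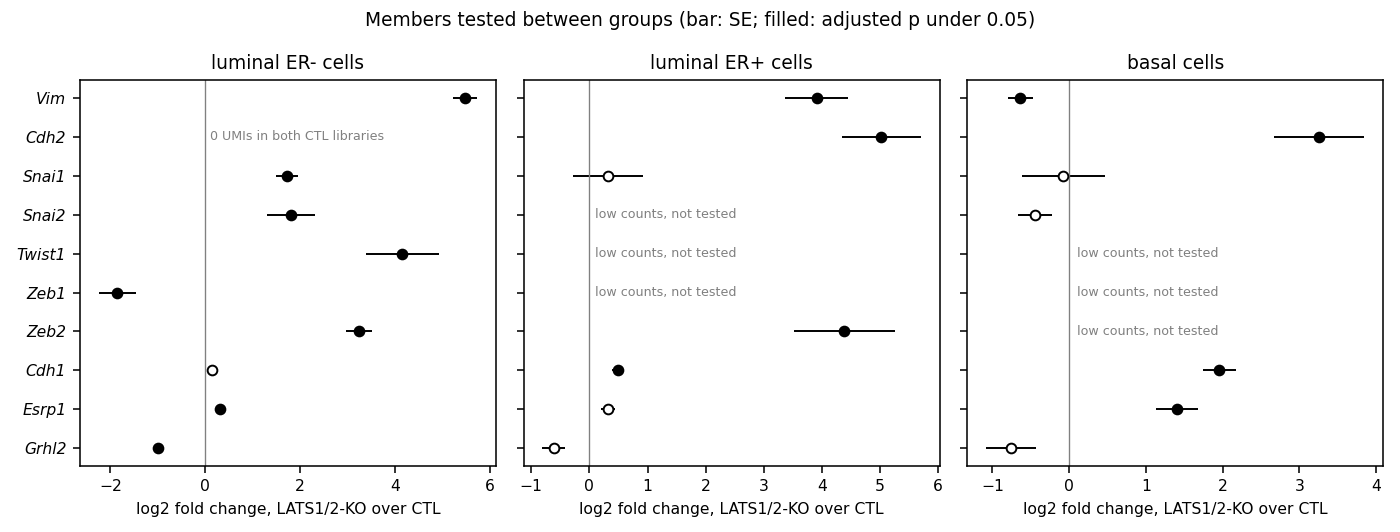
Log2 fold changes (LATS1/2-KO over CTL, TMM scaled) with their SE in luminal ER-, luminal ER+ and basal cells; filled points have an adjusted p under 0.05, and the fold change of Cdh2 in luminal ER- cells is not drawn because both CTL libraries had 0 UMIs. Vim lies at 5.47 in luminal ER- cells, 3.91 in luminal ER+ cells and -0.64 in basal cells.

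A further pair of lists was counted alongside the members, one of genes that accompany the mesenchymal state and one of genes that make up or sustain epithelial junctions and identity. Of 23 mesenchymal-side genes, 22 were tested in luminal ER- cells, of which 18 were higher and 2 lower, Tgfbr1 and Tcf4 (named after their values were seen). Tcf4 was lower only after TMM scaling, since its unscaled levels were 61.6, 62.7, 62.5 and 67.2 CPM. The median log2 fold change of the 22 tested genes was 3.36, and free RNA could give much of the UMIs of some of them, as given further on. Fn1 (fibronectin) rose from 1.10 and 1.01 to 177 and 101 CPM, a log2 fold change of 6.67 ± 0.35 (SE, adjusted p = 9.68e-06, edgeR), and Lgals1 (galectin-1) from 9.08 and 10.8 to 1106 and 813, a log2 fold change of 6.23 ± 0.21 (SE, adjusted p = 2.67e-06). Nt5e (the ecto-enzyme CD73) rose from 3 and 5 UMIs to 355 and 325 UMIs.

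All 28 epithelial-side genes were tested, of which 16 were lower and 8 higher, with a median log2 fold change of -0.45. The 3 most reduced of the named ones were Tjp3 (a tight junction scaffold), from 97.5 and 100.3 to 19.3 and 19.7 CPM (log2 fold change -2.70 ± 0.09, SE, adjusted p = 2.67e-06), Elf3 (an epithelial ETS factor), from 172 and 190 to 36.0 and 41.2, and Ocln (occludin), from 87.5 and 84.0 to 45.6 and 41.8. Cdh3 (P-cadherin, a cadherin of basal mammary cells) rose from 5 and 4 UMIs to 76 and 77 UMIs, a log2 fold change of 3.39 ± 0.35 (SE, adjusted p = 0.000179, edgeR). The list did not move as 1 class: Dsp gave 1247, 1042, 4180 and 4813 UMIs, and Pkp3 991, 837, 2608 and 2851 (both named after their values were seen). Shares of 81.8% and 28.6% of the tested mesenchymal-side and epithelial-side genes were called higher, against 34.2% of all genes, for lists chosen with earlier results of these data known. These shares make no allowance for free RNA.

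Because LATS1/2-KO glands held more stromal cells, the share of luminal UMIs that free RNA in the droplets could give was estimated. For each library, the collagen genes Col1a1, Col1a2 and Col3a1 in luminal cells set how much fibroblast RNA was present, and endothelial and immune marker genes did the same for those lineages. Col3a1, which luminal cells should lack, was at 0.947 and 0.384 CPM in CTL luminal ER- cells and at 67.4 and 44.5 in LATS1/2-KO, so stromal RNA in luminal barcodes was itself higher in LATS1/2-KO.

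**Figure D3:**
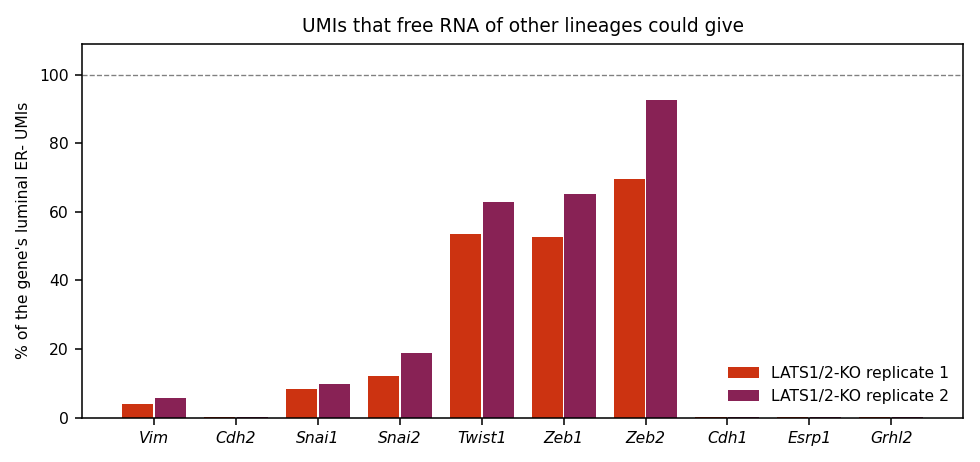
Share of each gene's UMIs in luminal ER- cells that free RNA of fibroblasts, endothelial cells and immune cells could give, for LATS1/2-KO replicates 1 and 2. Vim stays at 3.86% and 5.75%, while Zeb2 reaches 69.6% and 92.6%.

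Of the Vim UMIs in LATS1/2-KO luminal ER- cells, free RNA could give 3.86% and 5.75%, and of the Cdh2 UMIs 0.233% and 0.181%. The shares were 8.29% and 9.82% for Snai1 and 12.2% and 18.9% for Snai2. They were far larger for Twist1 (53.5% and 62.8%), Zeb1 (52.6% and 65.2%) and Zeb2 (69.6% and 92.6%). In CTL the same estimate gave 5.12% and 7.77% of the Zeb1 UMIs and 15.0% and 14.4% of the Vim UMIs. Basal cells were not among these sources. With basal RNA added, scaled to Myh11, Cnn1 and Oxtr, the estimate rose to 240.0% and 228% of the LATS1/2-KO Snai2 UMIs and to 312% and 382% of those in CTL, so the whole Snai2 signal of luminal ER- cells is within what basal RNA could give. In CTL replicates 1 and 2 it expected 12.5 and 7.64 Snai2 UMIs where 4 and 2 were counted, so for Snai2 it was too high. For Vim the estimate rose to 7.35% and 9.05% in LATS1/2-KO but to 115% and 70.1% in CTL. Because it overshot for Snai2, it cannot decide how much of the low CTL Vim level came from luminal cells. The LATS1/2-KO estimates with basal RNA added were 3.73% and 2.53% for Cdh2 and 11.1% and 15.4% for Snai1. After the estimate without the basal source was subtracted, Vim, Cdh2, Snai1, Snai2, Twist1 and Esrp1 were called higher and Zeb1 and Grhl2 lower, whereas Zeb2 was left with too few counts to be tested. The higher Zeb2 level in LATS1/2-KO luminal ER- cells therefore cannot be told apart from stromal and immune RNA. For the lists named above, free RNA could give 4.47% and 5.74% of the Fn1, 1.37% and 1.48% of the Lgals1 and 4.69% and 3.64% of the Nt5e UMIs in the LATS1/2-KO libraries. Other mesenchymal-side genes had larger shares: Tgfbi 136% and 110%, Mmp2 76.3% and 123%, Prrx1 58.6% and 103%, and Sparc 57.8% and 80.4%. Cdh11 had 59.0% and 65.3%, and Twist2 44.0% and 50.1%. The remaining mesenchymal-side genes with UMIs stayed at or below 20.1% in these libraries (Itga5, replicate 2). The counts called in this list were not corrected for free RNA.

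A stricter view used only luminal ER- cells with 0 UMIs of Col1a1, Col1a2, Col3a1, Dcn and Sparc. Sparc is also on the mesenchymal-side list, so luminal cells that express it were left out. These were 92.3% and 91.7% of the luminal ER- cells in CTL but 9.73% and 8.03% in LATS1/2-KO, which left 249 and 203 cells. In them Vim was at 11.9, 9.95, 588 and 330 CPM, and Cdh2 at 0, 0, 8.78 and 14.3. Vim, Cdh2, Snai1, Zeb2 (12 and 16 UMIs in LATS1/2-KO) and Esrp1 were again called higher and Grhl2 lower, while the call of Zeb1 was lost (adjusted p = 0.120, edgeR), with 3 Zeb1 UMIs in each of the LATS1/2-KO libraries. Snai2 and Twist1 had too few counts to be tested in these cells. Zeb2 was at 6.58 and 9.15 CPM in those of LATS1/2-KO, against a mean of 4.77 in all LATS1/2-KO luminal ER- cells. The filter does not select against RNA of immune, endothelial or basal cells.

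**Figure D4:**
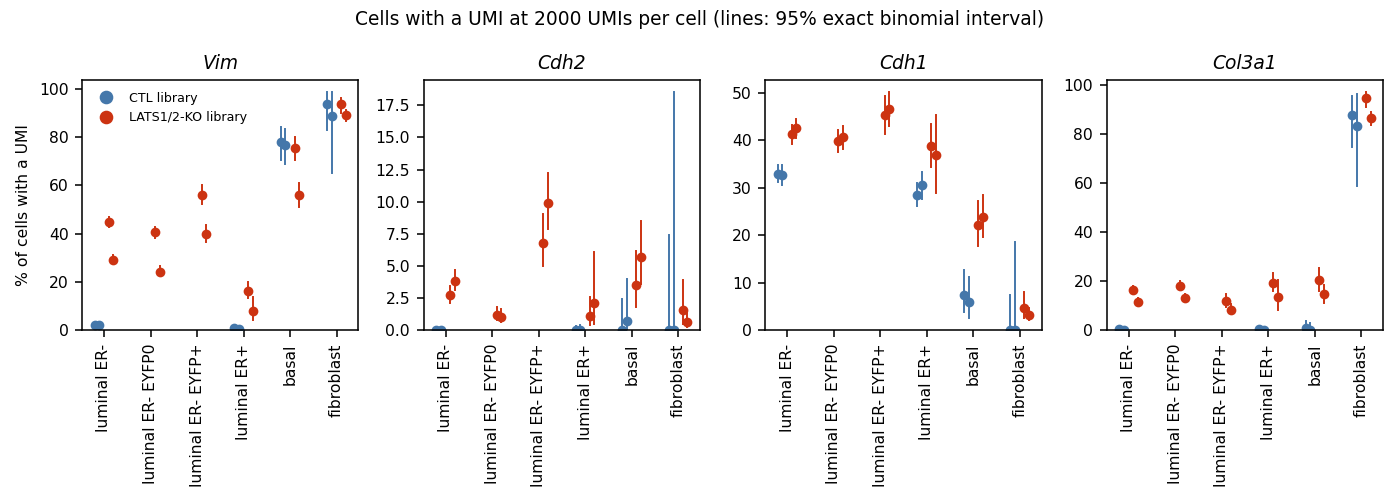
Percentage of cells with at least 1 UMI of Vim, Cdh2, Cdh1 and Col3a1 after each cell was thinned to 2000 UMIs, per library with 95% exact binomial intervals. Vim was present in 44.7% and 29.2% of LATS1/2-KO luminal ER- cells and in 2.17% and 1.86% of CTL ones, above the 16.4% and 11.6% with Col3a1 in the same LATS1/2-KO cells.

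The rise was also spread over many cells. With 2000 UMIs drawn at random from each cell, 59 of 2722 and 37 of 1993 CTL luminal ER- cells had a Vim UMI (2.17% and 1.86%), against 1076 of 2405 and 703 of 2407 in LATS1/2-KO (44.7% and 29.2%; exact binomial 95% intervals 42.7 to 46.7% and 27.4 to 31.1%, which cover counting error only). Without thinning the shares were 8.84%, 7.68%, 68.5% and 53.6%, at median depths of 7037, 8132, 8585 and 9304 UMIs. Col3a1 gives the share that free stromal RNA reaches in these cells, 0.294% and 0.0502% (CTL) and 16.4% and 11.6% (LATS1/2-KO). In LATS1/2-KO fibroblasts 94.6% and 86.4% of cells had a Col3a1 UMI. The drawn shares in luminal ER- cells and their EYFP classes lay within 1.24 percentage points of the average over all possible draws for Vim, 1.55 for Cdh2, 2.02 for Cdh1 and 0.775 for Col3a1.

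Cdh2 was seen in 0 of 2722 and 0 of 1993 CTL luminal ER- cells, which limits the share of cells with a UMI at this depth to 0.110% and 0.151% but not the share that express the gene, and in 2.70% and 3.82% of LATS1/2-KO luminal ER- cells. In LATS1/2-KO macrophages, which should lack it, it was seen in 0 of 195 and 0 of 266 cells, which allows up to 1.54% and 1.13%, at median depths of 4536 and 4578.5 UMIs against 9230 and 9769 in the luminal ER- cells. Snai1 was seen in 0.257% and 0.201% of CTL and 0.707% and 0.956% of LATS1/2-KO luminal ER- cells. Cdh1 was seen in 32.9% and 32.7% of CTL and 41.3% and 42.5% of LATS1/2-KO luminal ER- cells.

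Vim and Cdh1 were found in the same cells. In LATS1/2-KO luminal ER- cells at 2000 UMIs, Vim was present in 47.6% and 31.8% of the cells with a Cdh1 UMI and in 42.7% and 27.3% of those without one. The Vim share in cells with Cdh1 was thus not lower than in cells without it in either library. Cdh2 was present in 4.03% and 5.47% of the cells with Cdh1 and in 1.77% and 2.60% of those without.

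Within the LATS1/2-KO luminal ER- cells, Vim and Cdh2 were not highest in the same cluster. Unsupervised clusters built from all genes, and so from these genes as well, are given as a description only. The cluster with the most luminal ER- cells (1065 and 1278 cells, 6.67% and 9.70% with EYFP UMIs) had Vim at 160 and 78.1 CPM and Cdh2 at 1.06 and 1.08. Another cluster (1014 and 810 cells, 40.0% and 56.3% with EYFP) had the highest Vim, 1097 and 839, with Cdh2 at 7.23 and 7.55. The Cdh2-rich cluster (312 and 287 cells, 50.6% and 59.6% with EYFP) had Vim at 559 and 227 but Cdh2 at 143 and 222, and its Cdh1 level, 456 and 543, was above the 225 to 299 of both others. A small cluster of shallow cells (96 and 113 cells, medians of 1663.5 and 2140 UMIs) had Cdh1 at 459 and 461 with Cdh2 at 0 and 2.70, so a high Cdh1 level was not particular to the Cdh2-rich cluster. Grhl2 was at 24.3 to 25.3 CPM in the cluster with the highest Vim and at 35.2 to 44.3 in the first and the Cdh2-rich clusters. The first 3 clusters also differed in depth, with medians of 6005 and 7134.5, 14307 and 17963, and 7187 and 9007 UMIs per cell.

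The EYFP comparison asked whether the changes were larger in luminal cells with evidence of Cre activity. In the LATS1/2-KO libraries, 698 and 805 luminal cells had an EYFP UMI and 2324 and 1866 had none. Vim was at 962 and 654 CPM in EYFP-positive cells and at 522 and 318 in cells at EYFP = 0. It was higher in EYFP-positive cells in both mice, by 0.95 ± 0.05 on the log2 scale (SE, adjusted p = 4.56e-12, edgeR with the mouse as a block). Cdh2 was at 39.1 and 50.1 against 8.32 and 7.40 CPM, a log2 difference of 2.48 ± 0.12 (SE, adjusted p = 6.04e-13). Of the 10 members, Cdh2 had the largest difference here.

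**Figure D5:**
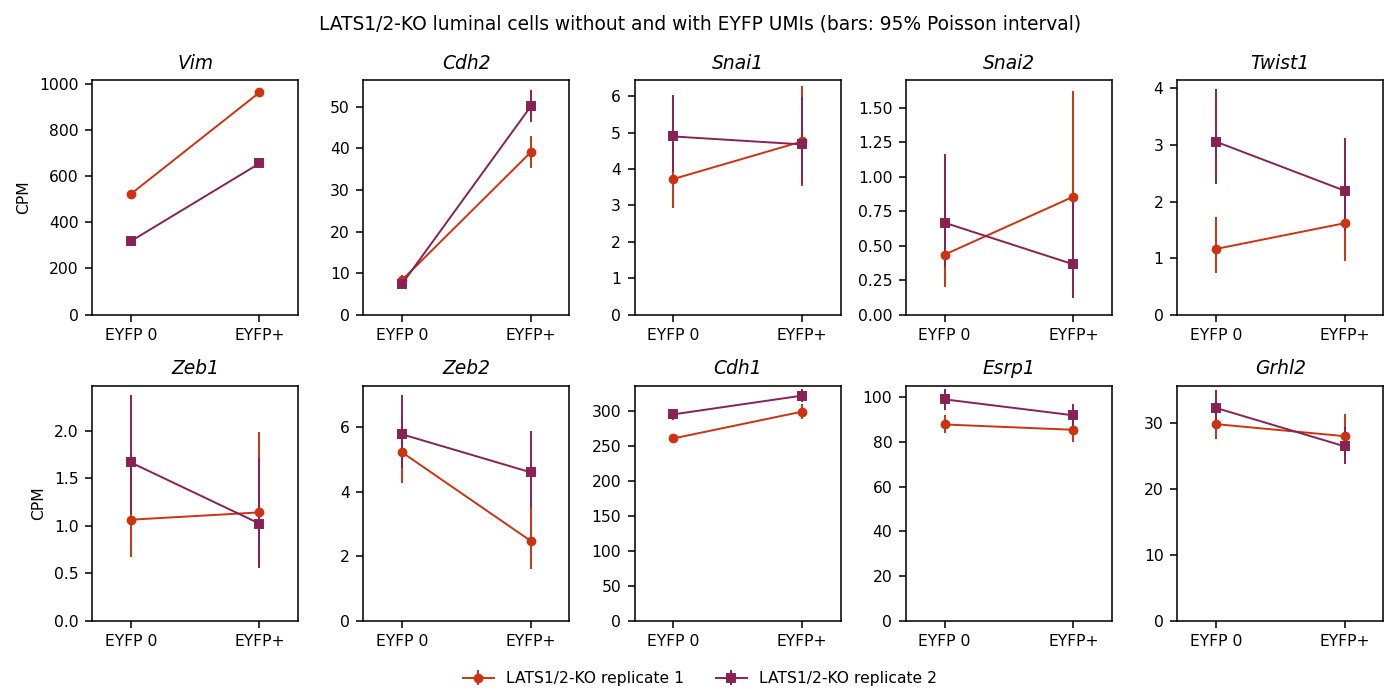
CPM of the 10 genes in LATS1/2-KO luminal cells without and with EYFP UMIs, 1 line per mouse with 95% Poisson intervals. Vim and Cdh2 go up in both mice, whereas the lines of Snai1, Snai2, Twist1 and Zeb1 go in opposite directions in the 2 mice.

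Of the 10 members tested, 3 were called higher and 1 lower in EYFP-positive cells, in a comparison that called 41.7% of all genes, 20.4% higher and 21.3% lower. Cdh1 was at 299 and 322 against 260 and 295 CPM (log2 difference 0.15 ± 0.06, SE, adjusted p = 0.0401), and Zeb2 was at 2.47 and 4.60 against 5.22 and 5.78 (log2 difference -0.65 ± 0.22, SE, adjusted p = 0.0250). Both of these calls were lost in several alternatives. Snai1 was at 4.75 and 4.67 against 3.72 and 4.89 CPM, and the groups overlapped. Its log2 difference was 0.12 ± 0.22 (SE, adjusted p = 0.696), and Snai2, Twist1, Zeb1, Esrp1 and Grhl2 were likewise not called, although Grhl2 was called lower when luminal ER- cells alone were compared (log2 difference -0.27, adjusted p = 0.0232). EYFP-positive cells were deeper, with medians of 13859 and 15700 UMIs in luminal ER- cells against 7727 and 7825 at EYFP = 0. With every cell thinned to 2000 UMIs the log2 differences of Vim and Cdh2 were 1.10 and 2.85, with adjusted p of 1.14e-11 and 9.26e-11 (edgeR). These come from 1 random draw. Averaged over all draws, the log2 differences in the mice were 1.11 and 1.21 for Vim and 2.23 and 2.82 for Cdh2. Without the mouse as a block Vim did not pass (adjusted p = 0.0933) and Cdh2 did.

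Cells at EYFP = 0 were not at the CTL level. Their Vim, 522 and 318 CPM, stood against 11.8 and 9.93 in CTL luminal ER- cells and 5.28 and 3.92 in CTL luminal ER+ cells, and their Cdh2, 8.32 and 7.40, stood against 0 in CTL luminal ER- cells. At 2000 UMIs per cell, 40.5% and 24.2% of the luminal ER- cells at EYFP = 0 had a Vim UMI, against 56.2% and 40.0% of the EYFP-positive ones. For Cdh2 the shares were 1.19% and 1.03% against 6.81% and 9.87% (1.53% and 1.23% against 6.66% and 8.32% averaged over all draws). Col3a1 went the other way, in 18.1% and 13.1% of the cells at EYFP = 0 and 11.9% and 8.29% of the EYFP-positive cells, as did the CPM of Zeb2.

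From the lists, 9 mesenchymal-side genes were called higher and 7 lower of 22 tested, and 10 epithelial-side genes higher and 7 lower of 28, where 20.4% of all genes were higher and 21.3% lower. Lgals1 was at 1533 and 1251 CPM in EYFP-positive cells against 704 and 421 (log2 difference 1.34 ± 0.07, SE, adjusted p = 8.83e-13, edgeR), and Axl (a receptor tyrosine kinase) at 27.1 and 25.0 against 14.7 and 8.40. Nt5e, which rose in LATS1/2-KO luminal ER- cells, was at 6.56 and 4.60 in EYFP-positive cells against 14.8 and 14.9 (log2 difference -1.44 ± 0.16, SE, adjusted p = 2.68e-07). On the epithelial side Cdh3 was at 3.99 and 3.73 against 1.89 and 1.89, Tjp3 at 14.2 and 14.4 against 24.4 and 24.9, Elf3 at 31.9 and 27.4 against 47.3 and 52.5, and Ovol1 (a zinc finger factor of epithelial identity) at 11.03 and 15.6 against 19.1 and 21.2. With DESeq2 the calls of Cdh3 and Ovol1 were lost (adjusted p = 0.174 and 0.0502), and without the mouse as a block so were those of Axl, Cdh3 and Ovol1 (0.0523, 0.0602 and 0.0880, edgeR).

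Luminal ER+ cells showed a smaller change of Vim. They were fewer in LATS1/2-KO (464 and 143 cells against 1425 and 1044), and 4 of the 7 members tested were called, all higher, where 27.7% of all genes were called and 14.2% higher. Vim was at 5.28, 3.92, 103 and 27.2 CPM (log2 fold change 3.91 ± 0.54, SE, adjusted p = 0.00433, edgeR). The LATS1/2-KO libraries were both above CTL but far apart from each other, and free RNA could give 24.0% of the Vim UMIs in replicate 1 and 122% in replicate 2, where they were 40. The Vim level in luminal ER+ cells of replicate 2 is therefore within what stromal RNA could give.

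In the same cells Cdh2 gave 1, 10, 40 and 15 UMIs (log2 fold change 5.02 ± 0.68, SE, adjusted p = 0.00395), Zeb2 gave 3, 7, 10 and 17, of which free RNA could give 100.4% and 37.6% in LATS1/2-KO, and Cdh1 was at 170, 175, 239 and 262 CPM (log2 fold change 0.49 ± 0.10, SE, adjusted p = 0.0129). Grhl2 was at 33.1, 34.5, 25.9 and 17.0 CPM with an adjusted p of 0.0578, and Esrp1 at 54.2, 61.8, 74.6 and 74.7 with an adjusted p of 0.0785. Snai1 was at 0.96, 2.12, 1.96 and 2.04 CPM and its groups overlapped. Snai2, Twist1 and Zeb1 had too few counts to be tested in luminal ER+ cells. Leaving out LATS1/2-KO replicate 2, or a stricter gate, reduced the count from 4 to 2. Without LATS1/2-KO replicate 2 the calls of Cdh1 and Zeb2 were lost (adjusted p = 0.0540 and 0.0714, edgeR), and without LATS1/2-KO replicate 1 those of Cdh1 and Cdh2 (0.0613 and 0.0612), whereas Grhl2 passed as lower without LATS1/2-KO replicate 1 or CTL replicate 2 (0.0396 and 0.0457). With each cell in the majority lineage of its cluster, the Cdh2 fold change fell to 2.41 on the log2 scale (adjusted p = 0.110).

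The difference of the LATS1/2-KO effect between the luminal classes was tested directly with the mouse as a block. The Vim effect was larger in luminal ER- cells by 1.60 ± 0.32 on the log2 scale (SE, adjusted p = 0.00438, edgeR), and the Cdh1 effect was smaller by a log2 difference of -0.43 ± 0.10 (SE, adjusted p = 0.00825). Cdh2 also passed (adjusted p = 0.00459), but its fitted size is not a measure, since luminal ER- cells of CTL had 0 UMIs. No other member passed, and 28.7% of all genes did. On unscaled totals the log2 fold changes in luminal ER- and luminal ER+ cells were 0.50 and 0.53 for Cdh1 and 5.83 and 3.94 for Vim. The difference was not tested on that scale, so the Cdh1 difference holds for TMM scaling only. Without the mouse as a block the Vim difference was 1.47 with an adjusted p of 0.145. The Cdh1 difference was -0.23 under the stricter gate (adjusted p = 0.158, edgeR) and was also lost without CTL replicate 2 or LATS1/2-KO replicate 1 (adjusted p = 0.0537 and 0.130, edgeR) and the Cdh2 difference without CTL replicate 2 (0.297), while Snai1 passed without CTL replicate 1 (0.0372) and Grhl2 without LATS1/2-KO replicate 2 (0.0228).

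Basal cells, the layer in which Vim and Snai2 are normally made, changed differently. Vim was at 1175 and 1286 CPM in CTL and at 1029 and 683 in LATS1/2-KO, which did not overlap, a log2 fold change of -0.64 ± 0.17 (SE, adjusted p = 0.00186, edgeR). This call was lost when either CTL library or LATS1/2-KO replicate 2 was left out (adjusted p = 0.166, 0.203 and 0.177). Snai2 did not pass (log2 fold change -0.44 ± 0.22, SE, adjusted p = 0.113), and its groups overlapped. Nor did Snai1 (log2 fold change -0.07 ± 0.54, SE, adjusted p = 0.935, edgeR). Twist1, Zeb1 and Zeb2 had too few counts to be tested in basal cells.

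The epithelial cadherin rose most clearly in this layer: Cdh1 was at 39.6 and 31.4 CPM in CTL basal cells and at 150 and 149 in LATS1/2-KO, a log2 fold change of 1.96 ± 0.22 (SE, adjusted p = 2.10e-10). Esrp1 was at 20.7 and 23.1 against 65.0 and 61.3 (log2 fold change 1.40 ± 0.27, SE, adjusted p = 4.90e-05), a call lost without CTL replicate 2 (adjusted p = 0.0502). Cdh2 gave 2, 1, 51 and 66 UMIs (log2 fold change 3.26 ± 0.59, SE, adjusted p = 1.35e-05). Grhl2 was at 22.4, 39.7, 21.5 and 18.7 CPM with an adjusted p of 0.0665. In all, 3 members were called higher and 1 lower of 7 tested, where 35.1% of all genes were called, 17.9% higher and 17.3% lower. Free RNA could give 20.7% and 9.41% of the LATS1/2-KO basal Cdh1 UMIs and 7.91% and 4.54% of the Cdh2 UMIs.

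The summed general epithelial markers were also higher in these basal cells, at 1249, 1144, 3309 and 2711 CPM, while the luminal ER- markers were at 482, 489, 570 and 311 and the luminal ER+ markers at 79.3, 72.7, 17.2 and 15.0. Basal cells numbered 172 and 148 in CTL and 325 and 404 in LATS1/2-KO. EYFP was at 1.72 and 3.31 CPM in CTL basal cells and 4.83 and 13.8 in LATS1/2-KO. Basal cells by marker and cells of luminal origin that had gained basal markers cannot be told apart by these markers alone. Of the 28 epithelial-side genes 17 were tested, of which 10 were higher, 0 lower and 7 not called, and of the mesenchymal-side genes 8 of 19 tested were higher and 2 lower, where 17.9% of all genes were higher and 17.3% lower.

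In fibroblasts, endothelial cells and lymphocytes none of the tested members was called by edgeR. Of the 7 tested in fibroblasts, 0 had an unadjusted p under 0.05, where 4.77% of all genes were called, and DESeq2 called 0 as well. Cdh2, Esrp1 and Grhl2 had too few counts to be tested there. In endothelial cells 5 were tested, 2 of which (Vim and Snai1) had an unadjusted p under 0.05, where 7.50% of all genes were called. Vim was at 3945, 3139, 2478 and 1842 CPM there, with an adjusted p of 0.105, and it passed without CTL replicate 2 (adjusted p = 0.0112, edgeR) or with the replicate number as a block (0.00679). In lymphocytes 2 were tested, Zeb1 with an unadjusted p of 0.0428 and an adjusted p of 0.441, where 1.02% of all genes were called. DESeq2 called 0 members in each of these lineages.

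The genes whose levels followed a member most closely were sought over the 32 sums of 8 lineages in 4 libraries, among 8866 genes. The sums share libraries and lineages and are not independent. For Vim the highest Pearson r of log2 levels were with Emp3 (0.87), Asap1 (0.84) and Dusp1 (0.83), for Snai2 with Tshz2 (0.88), Clip3 (0.85) and Sfrp1 (0.83), and for Grhl2 with Ntng1 (0.87), Tfap2a (0.87) and Sh3yl1 (0.86).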

How the data were processed

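Mammary cells of 4 mice were profiled by droplet 3' single-cell RNA-seq. The deposited matrices hold UMI counts per gene and cell (raw counts, no normalization) made by the authors with Cell Ranger on mm10; the matrix headers name version 6.1.2 and the submitters' processing notes 3.1.0. Cells with over 500 genes and under 20% mitochondrial UMIs were retained, as in the study's methods. Kept cells held 38792520 to 46810771 UMIs per library. No doublet removal was applied or is stated, and leaving out the 5% of cells with the most UMIs was tried instead.

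Each cell was gated by marker genes, with limits set after marker levels were seen; 97.1% of gated cells matched the majority of their cluster (Seurat 5.3.0, 20 components, resolution 0.4). Counts were summed per lineage and library and tested with edgeR 4.0.16 (R 4.3.3; filterByExpr, TMM, quasi-likelihood, Benjamini-Hochberg over all genes tested) where each library had at least 20 cells, so macrophages and perivascular cells were not tested. The EYFP and luminal class comparisons had the mouse as a block. Each SE of an edgeR log2 fold change was derived as its absolute value divided by the square root of the F statistic. It is not an SE taken over the mice. A call means an adjusted p under 0.05. The test is edgeR's unless another is named. It was also run on simulated counts with few changed genes, balanced up and down, and a fixed spread. That run does not check the scaling in luminal ER- cells, where 65.2% of genes were called. Each group has 2 mice with 1 mouse per library, and the LATS1/2-KO mice also differ in EYFP alleles. The p-values of the lineage comparisons rest on the spread between the libraries of a group, with spread estimates moderated over all genes tested. In the EYFP and luminal class comparisons the block takes out the level of each mouse. Their p-values rest on how far the differences within mice vary, again with spread estimates moderated over all genes tested. With 2 mice in the EYFP comparison, its small p-values and SEs draw on that shared spread. They do not measure the agreement of the 2 mice alone.

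Free RNA was estimated per library by scaling the summed counts of fibroblasts, endothelial cells and immune cells to marker genes that luminal cells lack; the luminal milk protein genes were a further source for basal cells and keratins for fibroblasts. Shares are in percent and intervals at 95% confidence (Poisson for levels, exact binomial for cells). Values at 2000 UMIs per cell come from 1 random draw per cell and vary from draw to draw.

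The levels of all 10 members are drawn for every lineage, and members with too few counts in a lineage were not tested in it. From each of the accompanying lists, the 4 called genes with the largest change and non-overlapping libraries were named, of which 1 is not reported here, and likeness was sought among genes averaging 10 CPM. The members and lists were chosen with earlier results of these data known. Alternatives were DESeq2 1.42.0, other scalings, filters, gates, blocks, thinning and left-out libraries. Unscaled totals, a basal source of free RNA and the average over thinning draws were added after the data were seen.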

Additional observations from a re-analysis of the deposited data

Results flagged for a closer look

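The LATS1/2-KO effect on 3 members differed between luminal ER- and luminal ER+ cells by a direct test of the difference, with the mouse as a block in edgeR. The difference, luminal ER- minus luminal ER+, was 1.60 on the log2 scale for Vim (adjusted p = 0.00438) and -0.43 for Cdh1 (adjusted p = 0.00825). On unscaled totals the Cdh1 log2 fold change was 0.50 in luminal ER- cells and 0.53 in luminal ER+ cells, and the difference was not tested on that scale. For Cdh2 the fitted difference was 6.34 (adjusted p = 0.00459), which rests on 0 UMIs in the luminal ER- cells of both CTL libraries and has no interpretable size. In luminal ER+ cells of LATS1/2-KO replicate 2, free RNA could give all of the 40 Vim UMIs, and the part of this in the Vim difference was not tested. No group had the 4 samples that a check for outlying libraries needs.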

How the results depend on the processing

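No called member changed direction in any of the alternatives run. In luminal ER- cells the count of 9 stayed within 1.5 times under every alternative. The count of called members moved in luminal ER+ cells from 4 to 2 under the stricter gate, in the EYFP comparison from 4 to 2 with DESeq2 and to 1 with no replicate block, and in endothelial cells from 0 to 1 (Vim) with the replicate block. Leaving out 1 library gave 7 to 8 called members in luminal ER- cells, 2 to 5 in luminal ER+ cells (2 without LATS1/2-KO replicate 2), 2 to 4 in basal cells (2 without CTL replicate 2), 0 to 1 in endothelial cells (1 without CTL replicate 2) and 1 to 4 for the difference between luminal classes (1 without CTL replicate 2). Of the luminal ER- UMIs in LATS1/2-KO, the mean share that free RNA could give moved with the basal source added from 15.5% to 234% for Snai2, from 9.05% to 13.3% for Snai1, from 4.81% to 8.2% for Vim and from 0.207% to 3.13% for Cdh2. With the fibroblast source alone it was 5.92% for Snai1, 2.34% for Vim, 37.7% for Zeb1 (58.9% with all sources) and 30.2% for Zeb2 (81.1%). Under 10% mitochondrial UMIs it was 69.6% for Twist1 (58.1%). The cause of the moves was not tested, except that leaving out a library leaves 1 in its group, which is then assumed to vary like the others. Replicate numbers did not pair the mice: the deviations of same-numbered libraries correlated at -0.0048 to 0.051 over lineages, and adding the replicate block changed no other lineage count of called members. Lymphocytes under the stricter gate had too few cells for a test.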
